A study of Mus musculus with 4 samples.

Results

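The microRNAs (miRs) described here are the late-annotated members of the deposited table, those whose number is 1000 or higher. They were chosen by name alone and make up 186 of the 568 mature miRs listed. The names from miR-6896 to miR-7094, a run given mostly to mirtrons, account for 48 of them, and 138 lie outside that run. The cells were proangiogenic cells (PACs), grown for 4 days on fibronectin from bone marrow taken 2 days after surgical hindlimb ischemia, which every mouse had undergone. CTL was made from 2-month-old C57Bl/6 mice and aging from 16-month-old C57Bl/6 mice. SMK was made from 2-month-old C57Bl/6 mice exposed to cigarette smoke. HC was made from 2-month-old APOE-/- mice on a Western-type diet, so the absent ApoE and the diet cannot be told apart. By the labels, CTL pooled 6 samples, aging 2, and SMK and HC 4 each. For aging that is fewer than the methods state, and the difference was not resolved. RNA was pooled before sequencing, each condition had 1 library, and the variation between mice is therefore unknown.

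Values are the authors' reads per 1000000 reads mapped (RPM). In each library all RPM were whole multiples of the smallest one, to within 0.001 count in 100% of cases, so the counts behind them could be recovered. A fold is the RPM of a cardiovascular risk factor (CRF) library over that of the CTL library, and the range in parentheses after it is its exact 95% interval for 2 counts. This interval holds counting error alone, and it compares 1 library with another rather than the conditions. The library totals were 2541732 (CTL), 1568958 (aging), 1670010 (SMK) and 1038986 counts (HC), which makes the HC values the least precise. Below, 4 values in a row are in the order CTL, aging, SMK and HC, and 3 folds in the order aging, SMK and HC. As a check on the cells, 14 of 15 cell type markers were listed. Endothelial miR-126a-3p was at 12424 to 30016 RPM, hematopoietic miR-223-3p at 22760 to 37472 RPM and mesenchymal miR-143-3p at 8097 to 27068 RPM, so the cultures carried markers of several cell types. Of the 4 libraries, aging held the least miR-143-3p and the least miR-126a-3p. In pooled cultures, fewer cells of a type and less RNA per cell cannot be told apart, and the part of cell composition in the results below was not tested.

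MiR numbers follow the order in which miRs were registered, so high numbers were given late, often to miRs that only deep sequencing reveals. Most miRs are cut from a hairpin first by Drosha with its partner Dgcr8 and then by Dicer, which leaves a 5p and a 3p arm. A mirtron bypasses Drosha. Its hairpin is a short intron, or lies at an end of a longer one, and splicing sets one end or both of the precursor. Other late entries lie in small nucleolar RNAs (snoRNAs) or Cajal body RNAs (scaRNAs), which guide the modification of other RNAs. The seed, bases 2 to 8 of a mature miR, is the part that pairs with target mRNAs.

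RefSeq (GRCm38.p6) held a mature sequence for 166 of the 186 members. The most abundant members with a RefSeq sequence are shown first, 5′ to 3′ with the seed in capitals, because they hold much of the members' summed level. They share no seed with each other.
miR-1839-5p: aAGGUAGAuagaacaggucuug
miR-3967: aGCUUGUCugacugauguug
miR-1198-5p: uAUGUGUUccuggcuggcuugg
miR-1981-5p: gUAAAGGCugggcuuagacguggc
miR-3074-5p: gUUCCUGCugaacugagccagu
miR-3535: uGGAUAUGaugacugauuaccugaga
miR-7015-5p: uCUGUGCAguaggcuguggguuc
miR-2137: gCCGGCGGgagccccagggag

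The other members of the mirtron run with 20 counts or more in a library and a RefSeq sequence, and miR-7222-5p from outside the run, follow in the same notation because the results below turn on them. Both miR-7090-3p and miR-7073-3p end in CAG, and the letters AG close nearly all introns. MiR-6912-5p ends in CAG too, but its last base lies 43 bases before the intron end.
miR-7090-3p: uUUGAUGUcugacuuugcag
miR-7073-3p: aUAGCCUUuuccuccccaacag
miR-7084-3p: gCCUCUGAccccuguccucugc
miR-6898-3p: aAGUCUCUuuguaccuucucu
miR-7021-5p: aUAGGAGUugauuacagagcaa
miR-7004-5p: uUCCGUGGaugaggccugugccgu
miR-6912-5p: uACAGGGAgggugcucaggcag
miR-7222-5p: gGCACUUGccaggcucugagcuggacu

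A further set differs by few bases from miRs that are far more abundant in PACs. Here the capitals mark the bases that differ from the abundant miR, which stands above its look-alikes in lower case.
miR-21a-5p: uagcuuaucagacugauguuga
miR-3967: agcuuGucUgacugauguug
miR-3965: UgcuuaucagCcugauguu
miR-22-3p: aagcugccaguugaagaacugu
miR-3966: agcugccagCugUagaacugu
miR-142a-5p: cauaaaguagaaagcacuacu
miR-3964: auaaGguagaaagcacuaAA
miR-3969: ccCuaaaguagaaaUcacua
let-7g-5p: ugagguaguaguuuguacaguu
miR-1961: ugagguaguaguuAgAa

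Late-annotated miRs were a small part of the miR counts of PACs, and their summed level was higher in each CRF library than in CTL. Together they held 2597 (CTL), 4390 (aging), 3338 (SMK) and 4547 RPM (HC), which is 0.26%, 0.439%, 0.334% and 0.455% of the counts to which each library was scaled, 99% to 99.6% of which are listed miRs. The fold of the sum was 1.69 (1.63 to 1.75) in aging, 1.29 (1.24 to 1.33) in SMK and 1.75 (1.69 to 1.82) in HC. For the 382 other miRs of the table it lay between 0.991 and 0.995. All folds of sums given here use the authors' RPM scaling alone. A trimmed mean of log ratios shifts every log2 fold by -0.39 (aging), -0.24 (SMK) and -0.43 (HC), so it lowers each of them. A pair of members, miR-1839-5p and miR-3967, held a large share of the sum, and without them, a choice made after seeing the data, its folds were 1.88, 1.4 and 2.05. SMK was thus nearest to CTL by this measure. The libraries also differed in their other RNA. The paper's supplement lists fewer miR reads, and more ribosomal, hairpin and other RNA reads, in each CRF library than in CTL. The part of this difference in the members' levels, and whether members drew reads from such RNAs, was not tested.

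A typical member was scarce. The median member was at 4.33 (CTL), 7.01 (aging), 5.09 (SMK) and 8.66 RPM (HC), against 26.8 to 39.5 RPM for the other miRs. In counts the members' medians were 11, 11, 8.5 and 9, so they differed less between libraries than the RPM did, and the median RPM was highest in the shallowest library. The table lists a miR only where it has at least 10 counts in at least 1 library and at least 1 count in each, and the part of this limit in the low members' levels was not tested. Of the 186 members, 65 had 20 counts or more in at least 1 library, 31 had them in all 4, and 121 in none. Folds are described for members with 20 counts or more in CTL or in the CRF library compared, since fewer counts give intervals too wide to read. The 121 members below that minimum everywhere reached at most 7.48 (CTL), 11.5 (aging), 11.4 (SMK) and 16.4 RPM (HC). Their summed counts, 1100 (CTL), 1083 (aging), 838 (SMK) and 849 (HC), gave folds of 1.59 (1.47 to 1.74), 1.16 (1.06 to 1.27) and 1.89 (1.72 to 2.07). CTL is the deepest library, so fewer than 20 counts in every library means a lower RPM cap in CTL than in the others. These folds therefore follow in part from the choice of the 121, and they are no support for a rise.

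Only 9 members reached 100 RPM in any library, and among these CTL had 3, aging 7, SMK 5 and HC all 9. MiR-1839-5p was the most abundant, at 502 (CTL), 758 (aging), 523 (SMK) and 538 RPM (HC). MiR-3967 was at 363, 373, 394 and 457 RPM in the same order. The CTL library held less of most of the others. MiR-1198-5p, from an intron of Gripap1, was at 132 (CTL), 404 (aging), 224 (SMK) and 321 RPM (HC). Its folds were 3.07 (2.68 to 3.51), 1.7 (1.46 to 1.98) and 2.43 (2.08 to 2.84). MiR-2137 had the widest range among the 9, with 10.2 (CTL), 53.5 (aging), 39.5 (SMK) and 179 RPM (HC). MiR-3970 was at 66.5, 91.1, 60.5 and 120.3 RPM, with folds of 1.37 (1.09 to 1.72) in aging, 0.91 (0.704 to 1.17) in SMK and 1.81 (1.42 to 2.29) in HC.

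**Figure D1:**
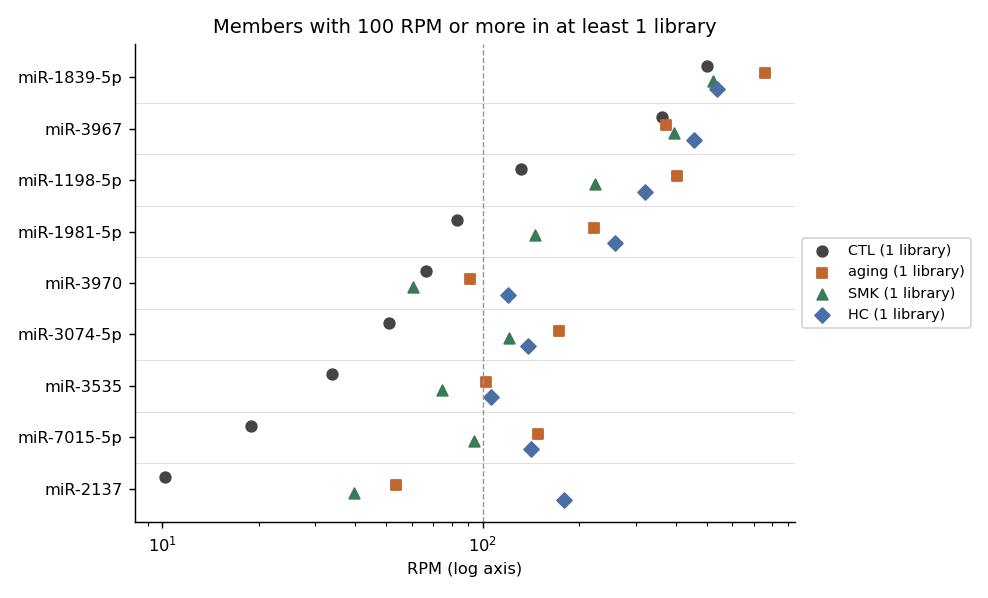
RPM (log axis) of the 9 members with 100 RPM or more in at least 1 library, with 1 point per library, CTL circles, aging squares, SMK triangles and HC diamonds, and a dashed line at 100 RPM. MiR-1839-5p and miR-3967 keep their 4 points close together, whereas miR-7015-5p runs from 18.9 (CTL) to 149 RPM (aging) and miR-2137 from 10.2 (CTL) to 179 RPM (HC).

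The first comparison addressed aging. The 3 comparisons below share the CTL library, so its values enter each of them, and they are given side by side without reading them as independent. With the limits of 0.8-fold and 1.6-fold that the study applied, 36 of 64 members were above 1.6-fold in aging and 11 were below 0.8-fold. Over all miRs with the same minimum, 36.4% were above and 25.9% below, 62.3% in all. The median log2 fold was 1.01 for members and 0.27 for all miRs. With a trimmed mean of log ratios as the scaling, 31 members were above and 15 below, and of all 363 miRs 94 above and 154 below. The whole interval lay above the upper limit for 23 members and below the lower one for 4, against 24% and 14.3% of all miRs, 38.3% in all. Of the 64 members, 18 had 20 counts only in aging and 10 only in CTL, against 36 and 49 of all 363 miRs. With these totals, 20 counts in aging and fewer than 20 in CTL always give a fold above 1.6. The 18 were therefore above the limit through the minimum itself. They are part of the 36 and of the median, so neither is support for a rise of the members. CTL is the deepest library, so a member could pass through CTL alone at a similar RPM, as miR-6416-3p did with 27 counts in CTL, 16 in aging and a fold of 0.96 (0.483 to 1.85).

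MiR-7672-5p had the highest fold in aging, at 1.57 (CTL), 17.2 (aging), 8.98 (SMK) and 15.4 RPM (HC). It lies in an exon of Pde12, and its fold of 10.9 (3.81 to 43.0) rested on 4 counts in CTL and 27 in aging. MiR-7654-3p, in an exon of Arglu1, was at 1.57, 13.4, 4.79 and 18.3 RPM, with a fold of 8.51 (2.87 to 34.1) in aging. Both were lowest in CTL. MiR-1249-3p was at 2.36, 20.4, 8.38 and 34.6 RPM and had a fold of 8.64 (3.56 to 25.3). MiR-7672-5p, miR-7654-3p and miR-1249-3p passed the minimum only through aging. With so few CTL counts only a high fold could admit them, so their rank follows in part from the minimum. Among lower members, miR-6340 was at 8.66 RPM in CTL and 2.55, 1.8 and 6.74 RPM in aging, SMK and HC, with a fold of 0.295 (0.0738 to 0.867) in aging. MiR-8117 was at 9.44 RPM in CTL and 4.46, 3.59 and 4.81 RPM in the CRF libraries, and its fold of 0.473 (0.172 to 1.13) had an interval that included 1. Both miR-6340 and miR-8117 passed the minimum only through CTL, so their low rank too follows in part from the minimum.

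SMK had the lowest median log2 fold of the 3 comparisons, but members that passed only through the CRF library are part of each median. In SMK, 23 of 53 members were above 1.6-fold and 10 below 0.8-fold, where 26.8% of all miRs were above and 15.6% below, 42.4% in all. The median log2 fold was 0.47 for members and 0.24 for all miRs. With a trimmed mean of log ratios as the scaling, the split became 18 above and 15 below, and that of all 347 miRs 64 above and 97 below. The whole interval was past the upper limit for 10 members and past the lower one for 5, against 14.7% and 5.19% of all miRs, 19.9% in all. Here 7 members had 20 counts only in SMK and 12 only in CTL, against 20 and 33 of all 347 miRs. As in aging, the 7 were above 1.6-fold through the minimum itself, so neither the 23 nor the median is support for a rise.

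The highest folds in SMK were those of miR-7015-5p, miR-6906-5p and miR-7084-3p, all of the mirtron run, followed by miR-1964-3p and miR-2137. MiR-1964-3p, from an intron of Zfp84, was at 5.51 (CTL), 24.2 (aging), 21.6 (SMK) and 13.5 RPM (HC). Its fold was 3.91 (2.06 to 7.86) in SMK and 4.4 (2.33 to 8.79) in aging. It had 14 counts in CTL and passed the minimum only through SMK and aging. MiR-3092-3p, from an intron of Fndc3b, had the opposite order, with 11.4 RPM in CTL and 1.91, 1.2 and 4.81 RPM in aging, SMK and HC. The counts were 29, 3, 2 and 5, and the ratio to CTL was 0.168 (0.0327 to 0.541) in aging, 0.105 (0.0121 to 0.415) in SMK and 0.422 (0.127 to 1.1) in HC. MiR-3092-3p passed the minimum only through CTL, so its low ratios follow in part from the minimum.

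In HC, 31 of 56 members were above 1.6-fold and 13 below 0.8-fold, where 36.8% of all miRs were above and 21.3% below, 58% in all. The median log2 fold was 0.83 for members and 0.33 for all miRs. Scaled by the trimmed mean, 24 were above and 17 below, and of all 348 miRs 82 above and 142 below. The whole interval was past the upper limit for 22 members and past the lower one for 3, against 23.9% and 8.05% of all miRs, 31.9% in all. In this comparison 10 members had 20 counts only in HC and 15 only in CTL, against 21 and 61 of all 348 miRs. The 10 were again above 1.6-fold through the minimum itself, so neither the 31 nor the median is support for a rise.

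MiR-2137, from an intron of Zfp185 (chrX:72992113-72992133), led HC with a fold of 17.5 (11.6 to 27.5), on 26 counts in CTL and 186 in HC. Its folds were 5.23 (3.34 to 8.47) in aging and 3.86 (2.42 to 6.34) in SMK. MiR-6240 was at 2.36 (CTL), 17.2 (aging), 8.38 (SMK) and 34.6 RPM (HC), and its HC fold was 14.7 (6.13 to 42.6). The counts of miR-1249-3p, 6 in CTL and 36 in HC, gave the same HC fold. MiR-6236 was at 6.69, 33.1, 23.4 and 51.0 RPM, with an HC fold of 7.63 (4.35 to 14.1). MiR-3089-3p was at 2.36 (CTL), 11.5 (aging), 1.8 (SMK) and 19.2 RPM (HC), so that it was high in aging and HC but not in SMK, and its HC fold was 8.15 (3.16 to 24.8). MiR-6240, miR-1249-3p, miR-6236 and miR-3089-3p passed the minimum only through HC. Their rank therefore follows in part from the minimum. G and C make up 85.7% of the bases of miR-2137, 69.2% of miR-6240, 63.6% of miR-1249-3p, 78.9% of miR-6236 and 52.2% of miR-3089-3p, where the median member has 54.5%.

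**Figure D2:**
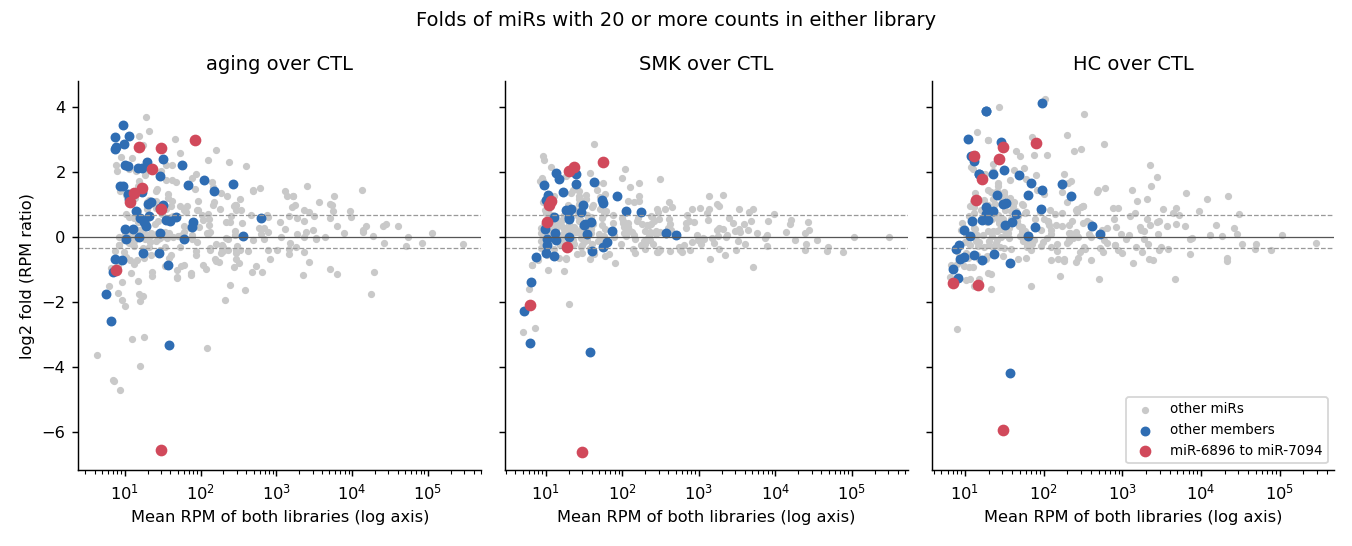
Log2 fold over CTL against the mean RPM of both libraries (log axis) for each miR with 20 or more counts in either library, in aging, SMK and HC, with members of the mirtron run in red, other members in blue, all other miRs in gray and dashed lines at the limits of 0.8-fold and 1.6-fold. Members sit at the left, below about 1000 RPM, with most blue and red points above 0 and miR-7090-3p lowest of all points in each panel.

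The mirtron run was checked against the gene annotation (GENCODE release M21, GRCm38). All 43 of its members with a RefSeq locus lay in an intron of a gene on the same strand, against 64 of the 123 other members with a locus. Of its 17 3p arms, 14 ended on the last base of the intron and 16 within 10 bases of it, and 12 ended in CAG. Among the other members, 0 of 16 intronic 3p arms ended on the last base of the intron, and 0 of 24 3p arms in all ended in CAG. Of the 26 5p arms of the run, 23 ended 30 to 55 bases before the intron end, which is where the partner of such a 3p arm would lie. The introns were 75 to 24255 bases long with a median of 670, and 9 were under 120 bases. Most of these members therefore have the position of mirtrons whose 3′ end is a splice site, and not that of whole-intron mirtrons.

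**Figure D3:**
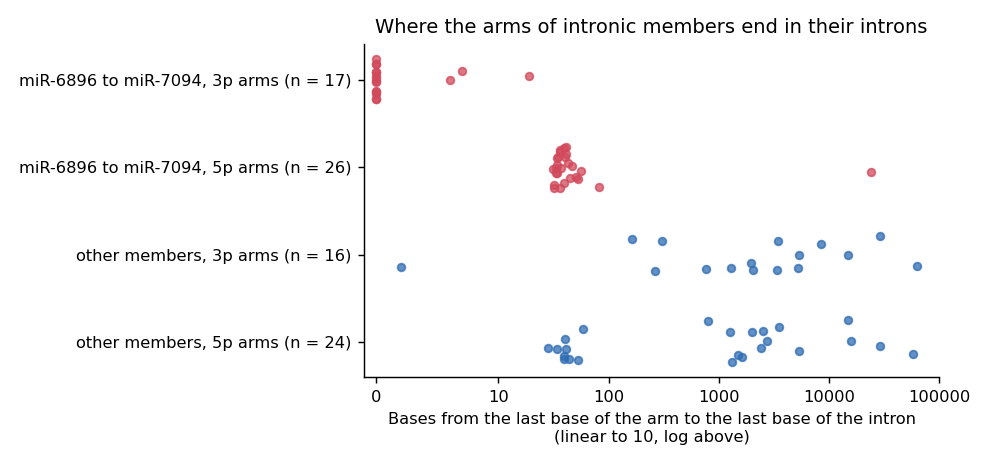
Distance in bases from the last base of an arm to the last base of its intron (linear to 10, log above), with 1 point per intronic member, for miR-6896 to miR-7094 (red) and other members (blue), split into 3p and 5p arms, and points spread vertically only to show them apart. In the mirtron run 14 of 17 3p arms stand at 0 and 23 of 26 5p arms between 30 and 55, whereas most other members are far from the intron end.

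The mirtron run held 285 (CTL), 586 (aging), 380.2 (SMK) and 608 RPM (HC). The folds of this sum were 2.06 (1.86 to 2.27), 1.33 (1.2 to 1.48) and 2.13 (1.91 to 2.38). A single member, miR-7090-3p, gave 59.4 RPM of the CTL sum, and without it, a choice made after seeing the data, the folds were 2.59 (2.33 to 2.88), 1.68 (1.5 to 1.89) and 2.69 (2.4 to 3.02). Only 10 of the 48 had 20 counts in any library. In aging 8 of 10 were above 1.6-fold and 2 below 0.8-fold, in SMK 5 and 2 of 9, and in HC 6 and 3 of 9. The shares above and below over all miRs were 36.4% and 25.9%, 26.8% and 15.6%, and 36.8% and 21.3%. Of the members above, 3 in aging, 2 in SMK and 2 in HC passed the minimum only through the CRF library, which itself put them above 1.6-fold. The median log2 fold, which includes those members, was 1.44, 1.0 and 1.80 in the same order, against 0.27, 0.24 and 0.33 over all miRs. Over all 48 members with no minimum it was 1.10, 0.24 and 1.05, against 0.40, 0.28 and 0.45 over all miRs. By this median the run was not above the table in SMK, although the fold of its sum there was 1.33. The run's median counts were 10 (CTL), 10 (aging), 6 (SMK) and 8.5 (HC). Similar low counts give folds above 1 where CTL is the deepest library, and the table lists only miRs with a count in each library. The part of depth and of this limit in the medians without a minimum was not tested.

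MiR-7015-5p was the most abundant mirtron of the run in each CRF library. It lies in an intron of Smap2, a gene for a protein of membrane traffic (chr4:120973295-120973317), with its last base 36 bases before the intron end. Its levels were 18.9 (CTL), 149 (aging), 94 (SMK) and 141 RPM (HC), from 48, 233, 157 and 147 counts. All 3 CRF libraries were well above CTL, with folds of 7.86 (5.74 to 11.0), 4.98 (3.58 to 7.03) and 7.49 (5.37 to 10.6). MiR-7084-3p, which ends 7 bases before the end of an intron of Elof1, a transcription elongation factor gene, was likewise lowest in CTL and next in SMK, with 7.87, 52.9, 32.3 and 53.9 RPM. Its folds were 6.72 (4.09 to 11.6), 4.11 (2.42 to 7.25) and 6.85 (4.05 to 12.1), although the annotation also places it in an exon of another Elof1 transcript. MiR-6906-5p was at 8.66 (CTL), 37.0 (aging), 38.3 (SMK) and 45.2 RPM (HC), with folds of 4.27 (2.57 to 7.33), 4.43 (2.69 to 7.55) and 5.23 (3.09 to 9.11).

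MiR-6898-3p, from a 136-base intron of Kansl3, was at 3.93 (CTL), 26.8 (aging), 11.4 (SMK) and 22.1 RPM (HC). Its folds were 6.8 (3.36 to 15.2) in aging and 5.63 (2.58 to 13.2) in HC, and in SMK it had too few counts. MiR-7004-5p, from an intron of Atp9a, was at 7.48, 15.9, 16.2 and 26.0 RPM, and its HC fold was 3.48 (1.86 to 6.62). MiR-6957-5p was at 8.66, 24.9, 12.0 and 19.2 RPM, so that SMK lay nearest to CTL. MiR-7073-3p, whose last base is the last base of an intron of Cnot1, a scaffold gene of the mRNA deadenylase complex, was at 7.48, 19.1, 15 and 12.5 RPM. Its fold was 2.56 (1.39 to 4.81) in aging and 2.0 (1.06 to 3.85) in SMK.

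Of the 10 members of the run with 20 counts, 3 were below 0.8-fold in at least 1 comparison. MiR-7021-5p, from an intron of Prdm2, was at 21.2 (CTL), 38.9 (aging), 17.4 (SMK) and 7.7 RPM (HC), so that it was above CTL in aging and below it in HC. The folds were 1.83 (1.25 to 2.69), 0.817 (0.502 to 1.31) and 0.362 (0.149 to 0.766). MiR-6912-5p, which overlaps Scamp4, was at 10.2 RPM in CTL and 5.1, 2.4 and 3.85 RPM in aging, SMK and HC, and the interval of its fold stayed below 1 only in SMK, at 0.234 (0.0594 to 0.675). It passed the minimum only through CTL, so its low folds follow in part from the minimum.

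The third was miR-7090-3p, with nearly all its counts in the CTL library. It had 151 counts in CTL and 1 count in each of aging, SMK and HC, or 59.4, 0.637, 0.599 and 0.962 RPM. The ratio to CTL was 0.0107 (0.00027 to 0.0607) in aging, 0.0101 (0.000254 to 0.057) in SMK and 0.0162 (0.000408 to 0.0916) in HC. It ends on the last base of an intron of Ctnnb1, the beta-catenin gene (chr9:120955128-120955147), and the annotation also gives a Ctnnb1 transcript that keeps this intron. Outside the run, miR-7222-5p behaved likewise, with 178 counts in CTL and 11, 10 and 4 in aging, SMK and HC, or 70, 7.01, 5.99 and 3.85 RPM. The folds were 0.1 (0.0491 to 0.184), 0.0855 (0.0403 to 0.161) and 0.055 (0.0148 to 0.143). Both miR-7090-3p and miR-7222-5p passed the minimum only through CTL. With a single CTL library, a difference carried by the condition and one carried by that library cannot be told apart.

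**Figure D4:**
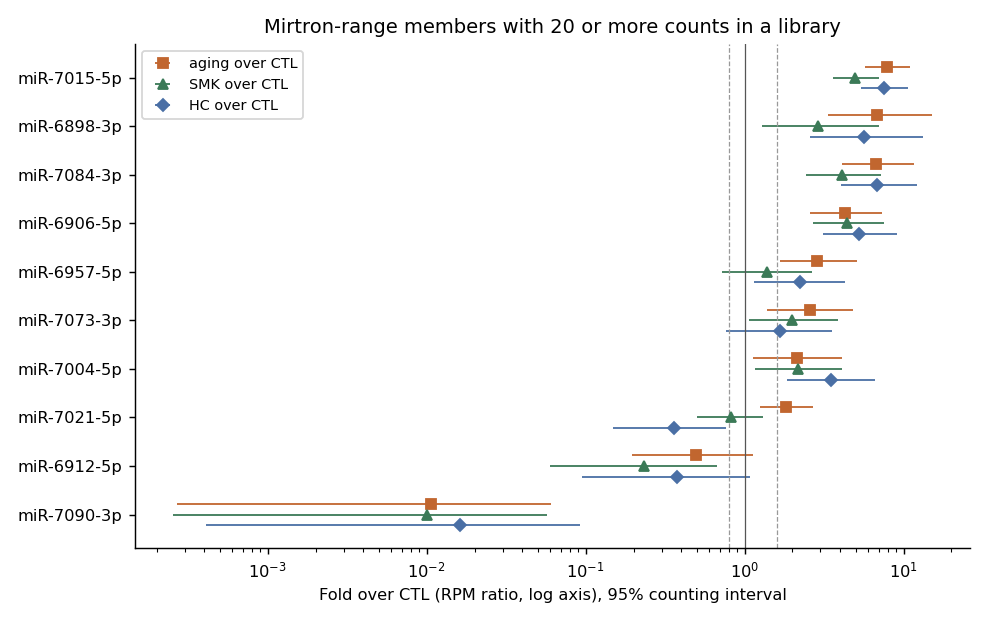
Fold over CTL (log axis) of the 10 members from miR-6896 to miR-7094 with 20 or more counts in a library, in aging (squares), SMK (triangles) and HC (diamonds), with bars for the 95% counting interval and dashed lines at 0.8 and 1.6; miR-6898-3p in SMK and miR-7073-3p in HC are drawn although they were below 20 counts there. MiR-7015-5p is highest in aging at 7.86, miR-7021-5p lies on both sides of 1, and miR-7090-3p is near 0.01 in all 3 comparisons.

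Mirtrons with numbers outside the run were also read. MiR-1981-5p starts on the first base of an 82-base intron of Marc2 (chr1:184822465-184822488), and the 3p arm ends 2 bases before the intron end, so this hairpin nearly fills its intron. The 5p arm was at 83 (CTL), 222 (aging), 146 (SMK) and 259 RPM (HC), with folds of 2.67 (2.25 to 3.19), 1.75 (1.45 to 2.12) and 3.12 (2.59 to 3.75). The 3p arm had 14, 12, 9 and 2 counts. MiR-877-3p, a mirtron numbered below 1000, was at 3.93, 10.2, 13.8 and 23.1 RPM, with folds of 3.5 (1.6 to 8.24) in SMK and 5.87 (2.71 to 13.8) in HC. MiR-702-3p had at most 10 counts.

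miRs that skip other processing steps were set beside the members. MiR-320-3p and miR-484 are made without Drosha from short transcripts of their own. MiR-320-3p was at 65.7 (CTL), 215 (aging), 189 (SMK) and 416 RPM (HC), and miR-484 at 15.3, 93.1, 60.5 and 129 RPM. All of these folds were above 1.6, from 2.88 to 6.33 for miR-320-3p and from 3.94 to 8.41 for miR-484. Over all miRs 36.4% were above 1.6-fold in aging, 26.8% in SMK and 36.8% in HC. Whether the way these miRs are made has a part in their levels was not tested. MiR-451a, an erythroid miR made without Dicer, differed, with 22.4 (CTL), 2.55 (aging), 14.4 (SMK) and 52 RPM (HC). MiR-1306, which lies in an exon of Dgcr8, the gene of Drosha's partner, had at most 18 counts of either arm in a library.

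Members in snoRNAs or scaRNAs numbered 9, of which 8 reached 20 counts. Of the 8, aging had 4 above 1.6-fold, SMK 3 and HC 3, and none was below 0.8-fold. Over all miRs 36.4%, 26.8% and 36.8% were above, so the HC count of this class was near that of the table. The median log2 folds were 0.70, 0.59 and 0.52. Among those above, miR-3068-3p had 16 counts in CTL and passed the minimum only through the CRF libraries. MiR-1839-5p, annotated as a scaRNA (chr7:81529919-81529940), had folds of 1.51 (1.39 to 1.64) in aging, 1.04 (0.956 to 1.14) in SMK and 1.07 (0.969 to 1.19) in HC. MiR-3535, in a snoRNA within an intron of the nucleolin gene Ncl, was at 33.8 (CTL), 102 (aging), 74.8 (SMK) and 106 RPM (HC). Its folds were 3.01 (2.3 to 3.96), 2.21 (1.67 to 2.95) and 3.13 (2.34 to 4.2). MiR-5121, which matches Snord33, was at 13.4, 27.4, 24.0 and 19.2 RPM. The members of this class thus ranged from nearly level to more than 3-fold. The snoRNA-derived miR-664-5p, numbered below 1000, was at 34.6, 121, 47.3 and 70.3 RPM. Reads of such members and of the snoRNA or scaRNA that holds them cannot be told apart by their letters.

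The look-alikes were compared with the miRs they resemble. Substitutions give the base of the abundant miR, its position counted from 1 at that miR's 5′ end, and the base of the member. MiR-3967 differs from miR-21a-5p, the most abundant miR of PACs, by A7G and A10U over 20 bases, and miR-3965 by A2U and A12C over 19 bases. MiR-3966 differs from miR-22-3p by U11C and A14U, and miR-3964 from miR-142a-5p by A6G, C20A and U21A. MiR-3969 differs from miR-142a-5p by A2C and G14U, with its first base outside the match, and miR-1961 from let-7g-5p by U14A and U16A. The authors' mapping allowed up to 2 mismatches in its second pass, and which members drew reads in that pass was not analysed here.

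Per 10000 counts of miR-21a-5p the miR-3967 counts were 11.7 (CTL), 14 (aging), 12.6 (SMK) and 16.7 (HC). The corresponding values of miR-3965 were 2.23, 3.24, 2.54 and 3.16. MiR-21a-5p itself was at 267374 to 313084 RPM. The folds of miR-3967 were 1.03 (0.926 to 1.14), 1.09 (0.98 to 1.2) and 1.26 (1.12 to 1.41), and those of miR-3965 1.25, 1.15 and 1.25. MiR-3966 was at 104, 114, 137 and 162 per 10000 counts of miR-22-3p. Its folds of 1.87 (1.27 to 2.76), 1.99 (1.37 to 2.91) and 2.02 (1.32 to 3.09) stood beside 1.7, 1.51 and 1.3 for miR-22-3p. MiR-3969 was at 147, 129, 81.2 and 152 per 10000 counts of miR-142a-5p. Its SMK fold of 0.93 (0.521 to 1.62) stood beside 1.68 (1.59 to 1.78) for miR-142a-5p, and its folds in aging and HC, 2.12 (1.34 to 3.36) and 1.63 (0.931 to 2.81), beside 2.4 and 1.58. The look-alikes thus did not all keep to the level of their partner. MiR-3964, with at most 10 counts, was at 36.7, 27.5, 36.9 and 31.6 per 10000 counts of miR-142a-5p. MiR-1961, with at most 14 counts, was at 22.3, 39, 18.5 and 24.2 per 10000 counts of let-7g-5p.

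Some members come from the strand opposite another miR. MiR-3074-5p is complementary to miR-24-3p over 20 bases, and is annotated opposite both miR-24 loci. It was at 50.8 (CTL), 173 (aging), 121 (SMK) and 138 RPM (HC), with folds of 3.4 (2.75 to 4.23), 2.38 (1.9 to 3.0) and 2.71 (2.12 to 3.47). For miR-24-3p the levels were 2353, 4965, 4337 and 4303 RPM, with lower folds of 2.11 (2.04 to 2.18), 1.84 (1.78 to 1.91) and 1.83 (1.76 to 1.9). The intervals of both miRs lay apart in aging and HC, and met in SMK. MiR-3065-5p, opposite miR-338-3p over 21 bases, was at 16.1, 25.5, 24.6 and 23.1 RPM, and no interval of its fold excluded 1.

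Where both arms of a hairpin were listed, the arms did not always move together. The 5p arm of miR-3092 was 12.1% of both arms in CTL (exact binomial 95% interval 3.4 to 28.2), 70% in aging, 83.3% in SMK and 70.6% in HC. In miR-3067 it was 26.9% in CTL (11.6 to 47.8) and 76.9% to 85.7% in the CRF libraries, from 7 to 26 counts of both arms. The 5p arm of miR-1306 was 28.6% in CTL (11.3 to 52.2), 60% in aging (36.1 to 80.9), 81.8% in SMK (59.7 to 94.8) and 72.7% in HC (49.8 to 89.3). These rest on few counts, and miR-3092 met the 20-count rule only through its 3p arm in CTL, where that arm is high. MiR-1964 had the reverse order, with 54.8% in CTL (36 to 72.7) against 20.8% in aging (10.5 to 35), 26.5% in SMK (14.9 to 41.1) and 12.5% in HC (1.55 to 38.3). MiR-3068 kept a dominant 5p arm, at 90.8% in CTL (85.5 to 94.7), but the share was lower in each CRF library. It was 78.8% in aging (70.3 to 85.8), 78.5% in SMK (69.5 to 85.9) and 72.5% in HC (62.2 to 81.4). The HC interval did not overlap that of CTL, whereas those of aging and SMK met it. Of the better counted hairpins, miR-1843a kept its share, at 72.3% to 76.6%. MiR-1981 kept a dominant 5p arm, at 93.8% in CTL (89.8 to 96.6) and 99.3% in HC (97.4 to 99.9), with intervals that did not overlap. In all 12 pairs of arms were compared, of which miR-1306, miR-1934, miR-3067 and miR-7091 had under 20 counts of each arm in each library. All but miR-1306 of these were added after their values were seen.

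**Figure D5:**
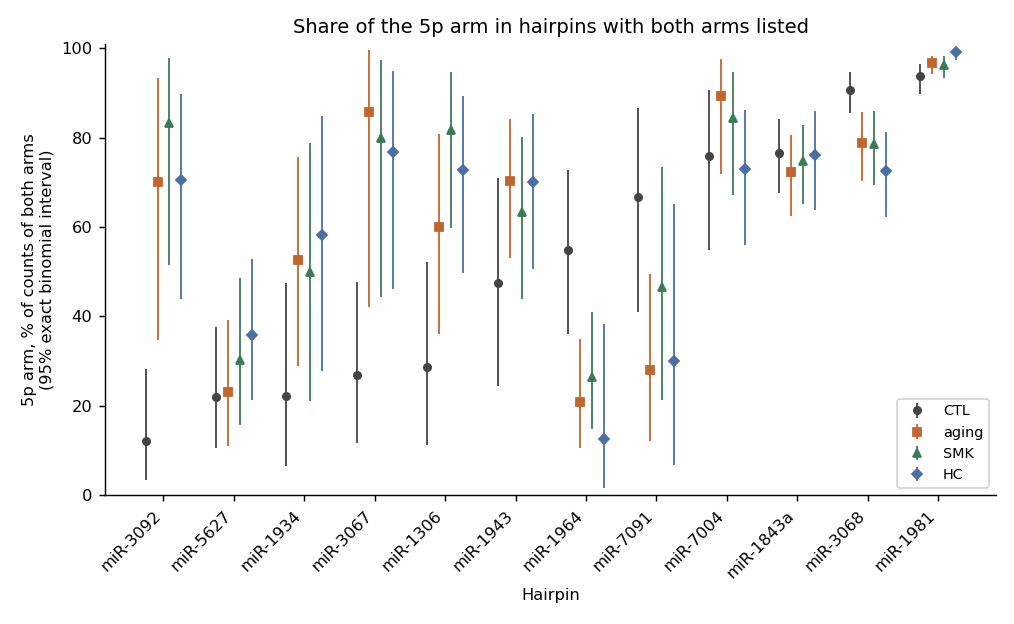
Share of the 5p arm among the counts of both arms, in percent, for the 12 hairpins with both arms listed, with 1 point per library, CTL circles, aging squares, SMK triangles and HC diamonds, and bars for the exact 95% binomial interval. In miR-3092 the CTL point at 12.1% lies below the other 3, in miR-1964 the CTL point at 54.8% lies above them, and in miR-1843a all 4 lie between 72.3% and 76.6%.

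Base composition and seeds were features that the choice of members did not use. Members had a median GC content of 54.5%, those of the mirtron run 58.3%, and other miRs 45.5%. Across members, Pearson's r of log2 fold and GC content was 0.27 in aging (n = 58), 0.14 in SMK (n = 47) and 0.35 in HC (n = 51). Across the other miRs it was 0.30, 0.40 and 0.46. The points are miRs of the same libraries and are not independent replicates. Members with 60% GC or more had median log2 folds of 1.77, 0.88 and 1.29, and those under 45% had 0.60, 0.13 and 0.23. For the other miRs these classes had 1.18, 0.70 and 1.44, and 0.00, 0.05 and 0.03, so the gradient was not particular to members. The part of base composition in the folds was not tested. The 166 members with a sequence had 164 different seeds, and 10 of them shared a seed with another listed miR. Among these, miR-1961 has the seed of let-7, miR-6383 that of miR-17-5p and miR-20a-5p, and miR-6240 that of miR-330-3p.

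MiR-3473b and miR-3473e also share a seed, GGCUGGA, and the mature letters of miR-3473b occur in transcripts of 343 genes, so its reads may come from many loci. It was at 15 (CTL), 20.4 (aging), 27.5 (SMK) and 36.6 RPM (HC), and miR-3473e at 36.6, 56.7, 76.0 and 89.5 RPM. In both, the order of the libraries was the same. The HC folds were 2.45 (1.52 to 3.94) and 2.45 (1.82 to 3.30), and this pair was named after its values were seen. MiR-3963, named likewise, was at 20.5 (CTL), 94.3 (aging), 65.9 (SMK) and 77.0 RPM (HC), and its folds were 4.61 (3.34 to 6.45), 3.22 (2.29 to 4.57) and 3.76 (2.62 to 5.44).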

How the data were processed

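MiRs were sequenced from the pooled RNA of PACs, with 1 library each for CTL, aging, SMK and HC. According to the methods, the authors prepared QIAseq miRNA libraries, sequenced them on a NextSeq 500, mapped reads with bowtie to miRBase v21 mature miRs, then to hairpins and other RNAs, then again to mature miRs with up to 2 mismatches, and normalized by library size. The submitters' processing notes name bcl2fastq 2.20, TopHat2 2.0.10 and HTSeq 0.5.4 instead, and the accounts were not reconciled. The deposited values are RPM, made by the authors. Whether molecular identifiers were merged is not given in the sources used here, and the effect of duplicate reads or of the mismatches allowed on scarce miRs was not tested.

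Counts were recovered by dividing each value by the smallest of its library. A count test across replicates was not run because each condition had 1 library. Folds carry no pseudocount, and intervals are exact (Clopper-Pearson on 2 counts). The interval code was tested on simulated data. Named miRs were members with 100 RPM in any library, the 5 highest and 5 lowest folds per comparison, mirtrons with 20 counts, hairpins with both arms listed, and lists by biogenesis. MiR-1224, miR-3102 and miR-5132 of those lists were not among the rows used here. The members, lists and rule were chosen with earlier results of these data known. Loci and sequences came from RefSeq (GRCm38.p6), host introns from GENCODE release M21, using the first locus of a miR with several. Alternatives were other scalings (edgeR 4.0.16 in R 4.3.3 for the trimmed mean), minimums, limits and pseudocounts, and SMK as the reference. Python 3.11.15, numpy 2.4.6, scipy 1.17.1 and pandas 2.3.3 were used. Raw reads, target predictions and cell assays were not analysed here.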

Additional observations from a re-analysis of the deposited data

How the results depend on the processing

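Counts of members past a limit depended on the minimum. With 100 RPM in either library they were 5 in aging, 3 in SMK and 7 in HC instead of 47, 33 and 44, with 100 RPM in CTL 1 in each, and with no minimum 136, 130 and 148. In percent these were 71.4, 60 and 77.8 of members against 59.7, 34.9 and 53.2 of all miRs with 100 RPM in either library, 33.3 in each against 54.5, 31.8 and 47 with 100 RPM in CTL, and 73.1, 69.9 and 79.6 against 66.4, 53 and 66 with no minimum. Requiring the whole interval past a limit left 27, 15 and 25. With a mean of 20 RPM over both libraries, an alternative chosen after seeing the data, they were 19, 17 and 23, split into 15 higher and 4 lower, 14 and 3, and 19 and 4, where all miRs gave 87 and 57, 64 and 32, and 96 and 42. With SMK in place of CTL as the reference they were 18 in aging, or 33.3% against 37.5% of all miRs, and 21 in HC, or 44.7% against 31.1%. The members' median log2 fold in aging went from 1.01 to 1.59 with 100 RPM in either library and to 0.44 with SMK as the reference. In HC it went from 0.83 to 1.44 with 100 RPM in either library and to 0.33 with 100 RPM in CTL. With 100 RPM in either library the mirtron median rested on a single member and went from 1.44 to 2.98 in aging and from 1.80 to 2.91 in HC, and no mirtron of the run reached 100 RPM in CTL or SMK. No median of the members or of the mirtron run changed sign under these alternatives. With the trimmed mean, the median of all miRs went from 0.27 to -0.12 in aging and from 0.33 to -0.10 in HC. The median ratio shifted all log2 folds by -0.15, -0.16 and -0.15, the trimmed mean by -0.39, -0.24 and -0.43. Of the named miRs' values under other scalings and pseudocounts, 533 stayed on their side of the limits, 23 fell back inside and 9 passed a limit. No paired analysis was possible because each condition had 1 library, and for the same reason no replicate could be left out.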
